A study of Homo sapiens with 32 samples.

Results

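The transcripts of 10 regulators that bind microtubules or tubulin were measured by RNA sequencing in 4 human endometrial cancer cell lines treated with paclitaxel, with SM08502 or with both. The genes were chosen by name, as stabilisers and destabilisers of microtubules linked to the response to taxanes, with earlier results of these data known. They were MAP4, MAPT, MAP1B and MAP7, which bind along the microtubule, CKAP5, CLASP1, CLASP2 and MAPRE1, which act at its growing end, STMN1, which binds tubulin dimers, and KATNA1, which severs the polymer. All 10 are among the 35238 genes of the deposited table and all 10 passed the filter on low values that left 17011 genes for testing.

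Microtubules are polymers of tubulin that alternate between growth and shrinkage, mostly at the plus end, and the mitotic spindle depends on this turnover. Structural microtubule-associated proteins (MAPs) coat the polymer and stabilise it, plus-end proteins speed growth or rescue shrinking ends, and stathmin and katanin work in the opposite direction by holding back dimers or by cutting the polymer. Paclitaxel, a taxane in use for endometrial cancer, binds tubulin within the polymer and suppresses its turnover, and levels of MAPT and of stathmin have been studied as markers of taxane response. SM08502 inhibits CDC-like kinases (CLKs), which phosphorylate the SR proteins that guide splicing.

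Ishikawa is labelled as wild type for CTNNB1, the gene of β-catenin, and Ishikawa-S33Y, SNGM and HEC265 are labelled as CTNNB1 mutant. Each line received 4 treatments for 24 h in 2 samples each: vehicle (0.1% DMSO), paclitaxel, SM08502 or their combination. Each drug was given at the dose that halved the viability of that line, so the doses differed. For paclitaxel it was 11 nM (Ishikawa), 6 nM (Ishikawa-S33Y), 11.7 nM (SNGM) and 5.6 nM (HEC265). SM08502 was used at 80 nM, 85 nM, 350.7 nM and 149 nM in the same order, and the combination joined both doses. Cells were plated in duplicate and nothing in the labels says that the 2 samples of a group came from separate cultures, so p-values measure the spread between these samples, which may be technical. The labels do not say whether Ishikawa-S33Y is 1 clone.

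Depth, recovered from the values, was 13.03 M to 34.1 M reads in 30 of the 32 libraries, with M for 1000000. The second combination library of Ishikawa-S33Y held 2.99 M reads and that of SNGM 1.61 M. All 7 epithelial markers examined (EPCAM, KRT8, KRT18, KRT19, CDH1, CLDN4 and PAX8) were above 1 CPM (reads per 1000000 reads counted in a library) in every library. MAPT and MAP1B are best known from neurons. Of 10 neuronal markers, between 1 and 5 were above 1 CPM in every library of a line, TUBB3 among them in each line, and ELAVL4 was listed at 0 throughout. Their summed level ran from 51.9 to 116 CPM for Ishikawa, 58.4 to 102 CPM for Ishikawa-S33Y, 169 to 396 CPM for SNGM and 28.9 to 58.4 CPM for HEC265. Most of the SNGM sum was TUBB3, at 153 to 386 CPM. RBFOX3 alone joined it above 1 CPM in every SNGM library, and SYN1, SNAP25 and GAP43 stayed at 0.201 CPM or less there. Ishikawa and Ishikawa-S33Y both held SYN1, SNAP25 and SYT1 above 1 CPM in every library. The part of these markers in the levels of MAPT and MAP1B was not tested. Of 7 stromal markers, Ishikawa-S33Y held 3 above 1 CPM in every library (COL1A1, COL3A1 and PDGFRA), SNGM 2 (COL1A2 and DCN), and Ishikawa and HEC265 1 each (COL1A1). In Ishikawa-S33Y COL1A1 was at 707 to 1158 CPM, while LUM and PDGFRB stayed at 0.148 CPM or less. Of 6 immune and endothelial markers, CD68 was above 1 CPM in every library of each line. PTPRC was so in Ishikawa and SNGM, and PECAM1 in SNGM. Libraries also differed in the balance of long and short transcripts, summarised here by a length score. It is the average log2(CPM + 1) over 40 genes whose transcripts are long, less the average over 75 genes of ribosomal proteins. Ishikawa libraries scored -3.53 to -1.68, those of Ishikawa-S33Y -2.22 to -1.25, those of SNGM -0.96 to -0.18 and those of HEC265 -1.18 to -0.65. RNA input, per the labels, was 350 ng for Ishikawa and 500 ng for the other lines.

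Of the 10 genes, 9 have an entry in the RefSeq promoter table (GRCh38.p14). The 250 bases before the start of 4 of them are printed as examples of the patterns described below: MAP4 and MAP7 were the pair most alike over the groups, MAP1B had the widest range, and CLASP1 fell with SM08502 in the mean over the lines. The windows are chr3:48088849-48089098 on the minus strand (MAP4), chr6:136550423-136550672 on the minus strand (MAP7), chr5:72107225-72107474 on the plus strand (MAP1B) and chr2:121649463-121649712 on the minus strand (CLASP1). Each is written 5′ to 3′ on the strand of its gene, and capitals mark matches, on either strand, to the CCAAT box (letters CCAAT), the GC box (letters GGGCGG), the E-box (letters CACGTG) or the TATA box (letters TATAAA).
MAP4: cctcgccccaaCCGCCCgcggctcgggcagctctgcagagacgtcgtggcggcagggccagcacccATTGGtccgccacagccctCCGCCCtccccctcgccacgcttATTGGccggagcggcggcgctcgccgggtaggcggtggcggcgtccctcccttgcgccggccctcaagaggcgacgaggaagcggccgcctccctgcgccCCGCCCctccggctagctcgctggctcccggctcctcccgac
MAP7: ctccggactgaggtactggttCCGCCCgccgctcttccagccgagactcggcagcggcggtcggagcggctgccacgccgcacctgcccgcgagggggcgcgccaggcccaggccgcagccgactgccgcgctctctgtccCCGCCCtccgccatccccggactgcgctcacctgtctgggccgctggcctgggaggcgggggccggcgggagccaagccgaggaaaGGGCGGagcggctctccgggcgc
MAP1B: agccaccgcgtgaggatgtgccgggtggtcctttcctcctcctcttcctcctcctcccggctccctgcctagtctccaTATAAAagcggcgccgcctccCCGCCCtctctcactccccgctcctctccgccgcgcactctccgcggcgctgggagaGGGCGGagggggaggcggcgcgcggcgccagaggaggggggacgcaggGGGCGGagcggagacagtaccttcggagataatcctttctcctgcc
CLASP1: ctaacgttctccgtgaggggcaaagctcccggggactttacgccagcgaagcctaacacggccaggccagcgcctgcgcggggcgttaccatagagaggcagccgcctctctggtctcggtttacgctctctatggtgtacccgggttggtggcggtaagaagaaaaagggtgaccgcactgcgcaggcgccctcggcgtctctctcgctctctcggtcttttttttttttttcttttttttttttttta

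The MAP4 window held 2 CCAAT boxes and 3 GC boxes by these letters, the MAP7 window 3 GC boxes, and the MAP1B window 3 GC boxes and 1 TATA box. The CLASP1 window held none of the 4 motifs, and neither did that of CLASP2. Over all 27305 windows of the same length in the table, 33.04% held a CCAAT box, 42.31% a GC box, 6.49% an E-box and 11.13% a TATA box. G and C made up 76.8% of the MAP4 window, 77.6% of the MAP7 window, 70.0% of the MAP1B window and 56.0% of the CLASP1 window. These matches are descriptions of the letters and do not mark binding sites.

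On vehicle, the regulators differed between the lines before any drug was given. In bulk RNA, fewer cells of a kind and less RNA per cell cannot be told apart. Differences are in log2(CPM + 1) with the standard error of a limma model over all 32 libraries, and a difference was called at a Benjamini-Hochberg adjusted p under 0.05 over the 17011 genes. The test over the 4 lines called 9 of the 10 genes, against 86.9% of all genes tested, with CKAP5 (adjusted p = 0.0744) as the exception. Of the 60 differences between pairs of lines, 42 were called, against 58.7% over all genes. The libraries of the 2 lines did not overlap in 57 of the 60, and that share over all genes was not computed. By pair, the count was 6 of 10 for Ishikawa-S33Y against Ishikawa (48.3% of all genes), 9 for SNGM against Ishikawa (66.8%), 9 for HEC265 against Ishikawa (63.3%), 6 for SNGM against Ishikawa-S33Y (60.8%), 6 for HEC265 against Ishikawa-S33Y (58.0%) and 6 for HEC265 against SNGM (54.9%). The share of regulators called was thus within reach of that of all genes, and the results below are those of single genes.

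**Figure D1:**
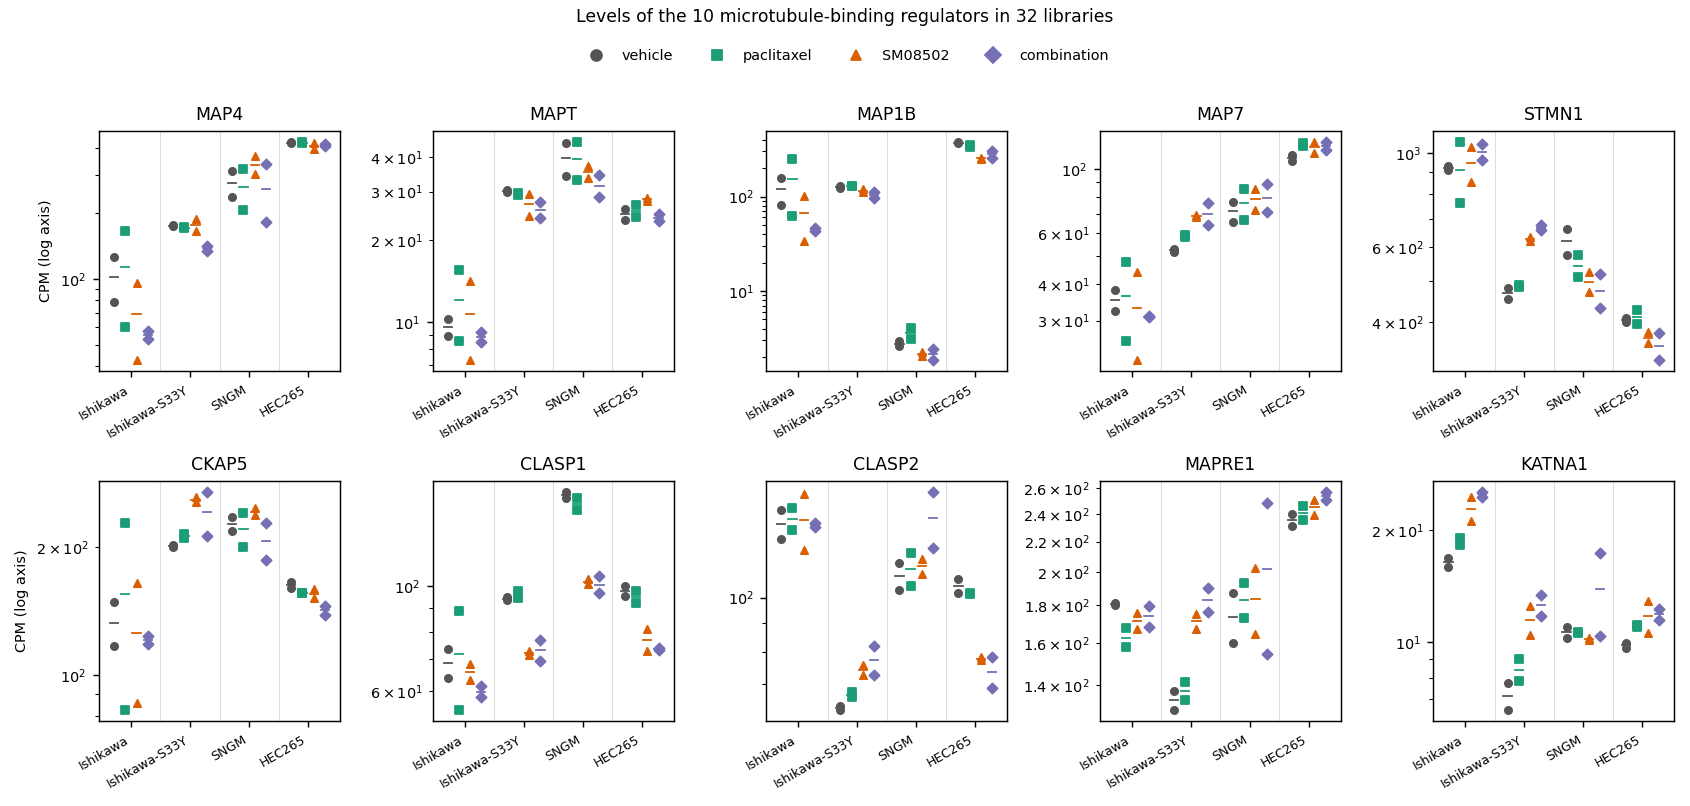
Level of each regulator in CPM (log axis, 1 panel a gene) in the 2 libraries of each group, with a short line at the group mean, by cell line and treatment. MAP1B lay between 1.87 and 4.09 CPM in the SNGM libraries and at 33.6 CPM or more in all others, and the replicates of paclitaxel and SM08502 in Ishikawa lie far apart for MAP4, MAP1B and CKAP5.

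MAP1B, a structural MAP of growing axons, showed the widest range (chr5:72107475-72209565). Its vehicle libraries held 2.62 and 2.93 CPM in SNGM, 80.3 and 159 CPM in Ishikawa, 128 and 123 CPM in Ishikawa-S33Y and 379 and 365 CPM in HEC265. SNGM stood below every other line without overlap and HEC265 above every other line. The vehicle mean of HEC265 was 134-fold that of SNGM, a difference of 6.63 ± 0.43 (SE) on the log2 scale (limma, adjusted p = 1.85e-11). HEC265 also exceeded Ishikawa-S33Y by 1.56 ± 0.43 (limma, adjusted p = 0.00389), while Ishikawa and Ishikawa-S33Y, neighbours in the order, differed by 0.15 (limma, adjusted p = 0.809). The SNGM levels rest on few reads, down to 3 in the shallow combination library.

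MAP4, the widely expressed relative of tau (chr3:47850695-48088848), and MAP7, also called ensconsin, a MAP that recruits kinesin-1 (chr6:136342734-136550422), followed the same order of lines: Ishikawa, Ishikawa-S33Y, SNGM, HEC265. MAP4 was at 78.5 and 127 CPM in Ishikawa, 175 and 177 CPM in Ishikawa-S33Y, 238 and 312 CPM in SNGM and 426 and 420 CPM in HEC265 on vehicle. No neighbours in this order were called for MAP4 (limma, adjusted p of 0.0712, 0.143 and 0.150), but HEC265 exceeded Ishikawa by 2.07 ± 0.36 (limma, adjusted p = 3.84e-05) and Ishikawa-S33Y by 1.26 ± 0.36 (limma, adjusted p = 0.00513). MAP7 was at 32.3 and 38.1 CPM in Ishikawa, 53.1 and 51.6 CPM in Ishikawa-S33Y, 65.8 and 77.1 CPM in SNGM and 106 and 112 CPM in HEC265. The libraries of the 4 lines did not overlap, and HEC265 was above its neighbour SNGM by 0.61 ± 0.24 (limma, adjusted p = 0.0355), a call lost with no filter, with quantile normalization and without any 1 of the 4 libraries compared (adjusted p up to 0.180). The other 2 neighbouring pairs were not called for MAP7. With the length score as a covariate, the MAP4 difference of HEC265 from Ishikawa was 0.19 (limma, adjusted p = 0.452).

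MAPT, the gene of tau, which stabilises microtubules in axons (chr17:45894554-46028334), was lowest in Ishikawa. It was at 8.94 and 10.3 CPM there, at 25.8 and 23.7 CPM in HEC265, at 29.9 and 30.4 CPM in Ishikawa-S33Y and at 34.3 and 45.3 CPM in SNGM on vehicle. Ishikawa was below each other line without overlap, and the difference from its neighbour HEC265 was 1.28 ± 0.23 (limma, adjusted p = 5.43e-05), or 0.19 with the length score as a covariate (limma, adjusted p = 0.412). HEC265 and Ishikawa-S33Y did not differ beyond their error (0.28 ± 0.23), nor did Ishikawa-S33Y and SNGM (0.38 ± 0.23), although SNGM exceeded HEC265 (limma, adjusted p = 0.0214). That last call was lost without any 1 of 3 libraries: the second vehicle library of SNGM and either one of HEC265 (adjusted p up to 0.205). The lncRNA MAPT-AS1 overlaps MAPT, and the strand of counting is not given in the sources used here, so reads of the 2 cannot be told apart.

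STMN1, the gene of stathmin, which sequesters tubulin dimers and promotes shrinkage (chr1:25884179-25906880), ran nearly the other way. Its vehicle libraries held 399 and 408 CPM in HEC265, 452 and 480 CPM in Ishikawa-S33Y, 662 and 576 CPM in SNGM and 910 and 933 CPM in Ishikawa. SNGM exceeded Ishikawa-S33Y by 0.40 ± 0.14 (limma, adjusted p = 0.0142) and Ishikawa exceeded SNGM by 0.58 ± 0.14 (limma, adjusted p = 0.000832), while HEC265 and Ishikawa-S33Y were not separated (limma, adjusted p = 0.204). The first of these calls was lost without the first vehicle library of either line (adjusted p up to 0.131), and SNGM minus Ishikawa was 0.08 with the length score as a covariate (limma, adjusted p = 0.657). STMN1 has the processed copies STMN1P1 and STMN1P2, and how reads shared with them were assigned is not given.

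Among the plus-end proteins, CKAP5, a polymerase that adds tubulin to growing ends (chr11:46743048-46846280), varied least between lines. It was at 117 and 148 CPM in Ishikawa, 160 and 166 CPM in HEC265, 200 and 202 CPM in Ishikawa-S33Y and 218 and 236 CPM in SNGM. Of its 6 pairs of lines, SNGM against Ishikawa alone was called (0.78 ± 0.29, limma, adjusted p = 0.0227), and it was lost with no filter, with the 2 lines fitted alone and without any 1 of 3 libraries: the first vehicle library of Ishikawa and either one of SNGM (adjusted p up to 0.154). CLASP1, which rescues shrinking ends (chr2:121337776-121649462), was highest in SNGM at 154 and 158 CPM. Its other vehicle libraries held 63.9 and 73.5 CPM in Ishikawa, 93.4 and 94.7 CPM in Ishikawa-S33Y and 100 and 95.4 CPM in HEC265. SNGM exceeded the next line, HEC265, by 0.67 ± 0.14 (limma, adjusted p = 0.000282).

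CLASP2, the close relative of CLASP1 (chr3:33496245-33718254), was lowest in Ishikawa-S33Y. It was at 64.0 and 63.0 CPM there, 108 and 102 CPM in HEC265, 115 and 103 CPM in SNGM and 127 and 143 CPM in Ishikawa. Ishikawa-S33Y stood below its neighbour HEC265 by 0.72 ± 0.12 (limma, adjusted p = 1.62e-05), and HEC265 and SNGM overlapped. MAPRE1, the gene of the end-binding protein EB1 that other plus-end proteins dock on (chr20:32819777-32850405), was also lowest in Ishikawa-S33Y, at 138 and 130 CPM, and highest in HEC265, at 240 and 231 CPM. SNGM (187 and 160 CPM) and Ishikawa (180 and 181 CPM) overlapped between them. HEC265 exceeded Ishikawa by 0.38 ± 0.14 (limma, adjusted p = 0.0255) and SNGM exceeded Ishikawa-S33Y by 0.37 ± 0.14 (limma, adjusted p = 0.0299). The first call was lost with quantile normalization, with the length score as a covariate and without any 1 of the 4 libraries compared. The second was lost with no filter, with quantile normalization, with the 2 lines fitted alone and without any 1 of 3 libraries. Ishikawa-S33Y was also called below Ishikawa, a call lost after median re-centring, with the length score as a covariate and without any 1 of 3 libraries. MAPRE1 has 3 named pseudogenes, with the same limit on shared reads as STMN1.

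KATNA1, the cutting subunit of katanin (chr6:149594873-149648990), had a mean of 7.16 CPM in Ishikawa-S33Y, 9.79 CPM in HEC265, 10.6 CPM in SNGM and 16.4 CPM in Ishikawa on vehicle. Ishikawa was above SNGM by 0.59 ± 0.16 (limma, adjusted p = 0.00321) and Ishikawa-S33Y below HEC265 by 0.41 ± 0.16 (limma, adjusted p = 0.0366), while HEC265 and SNGM were not separated. The first call was lost with quantile normalization and with the length score as a covariate (-0.35 for SNGM minus Ishikawa, adjusted p = 0.282). The second was lost with no filter, without the Ishikawa libraries and without any 1 of 3 libraries: the first vehicle library of Ishikawa-S33Y and either one of HEC265 (adjusted p up to 0.231). Ishikawa and Ishikawa-S33Y, which share a name but carry different CTNNB1 labels, were thus the 2 ends of the order for both CLASP2 and KATNA1. Ishikawa-S33Y was lower by 1.08 ± 0.12 for CLASP2 (limma, adjusted p = 2.06e-07) and by 1.10 ± 0.16 for KATNA1 (limma, adjusted p = 1.16e-05).

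The length score moved with some of these differences. It did not overlap between Ishikawa and SNGM or HEC265, nor between Ishikawa-S33Y and SNGM or HEC265. On vehicle it was also higher in Ishikawa-S33Y than in Ishikawa (-2.947 and -2.444), without overlap. In all these pairs line and score cannot be told apart. With the score as a covariate, the CLASP1 difference of Ishikawa-S33Y from Ishikawa was 0.02 (limma, adjusted p = 0.885), while those of MAPT, STMN1, CLASP2 and KATNA1 stayed called. The score also moved with the drugs within some lines. In Ishikawa-S33Y it was -1.245 and -1.373 on vehicle, -1.689 and -1.789 with SM08502 and -2.215 and -1.848 with the combination. In HEC265 it was -0.6533 and -0.7623, -1.023 and -1.132, and -1.180 and -1.018 in the same order. In Ishikawa the combination libraries (-3.138 and -3.308) lay below those on vehicle (-2.947 and -2.444). In these comparisons drug and score cannot be told apart. Within Ishikawa, the paclitaxel library with the score of -1.68 held 167 CPM of MAP4, 248 CPM of MAP1B and 228 CPM of CKAP5, and its replicate, with -3.46, held 60.2, 61.5 and 82.6 CPM of the same genes. The SM08502 libraries of Ishikawa, with scores of -2.49 and -3.53, held 96.04 and 42.6 CPM of MAP4, 101 and 33.6 CPM of MAP1B and 165 and 85.8 CPM of CKAP5. KATNA1 did not follow this pattern, with 19.02 and 18.3 CPM in the paclitaxel libraries. With the score as a covariate, the differences of SNGM from Ishikawa turned for MAP4 (-0.73), MAP7 (-0.36), STMN1 (0.08) and CKAP5 (-0.996), and those of HEC265 from Ishikawa turned for MAP1B (-0.57) and CLASP1 (-0.11). The median over all genes was itself -0.13 for SNGM minus Ishikawa and -0.17 for HEC265 minus Ishikawa.

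**Figure D2:**
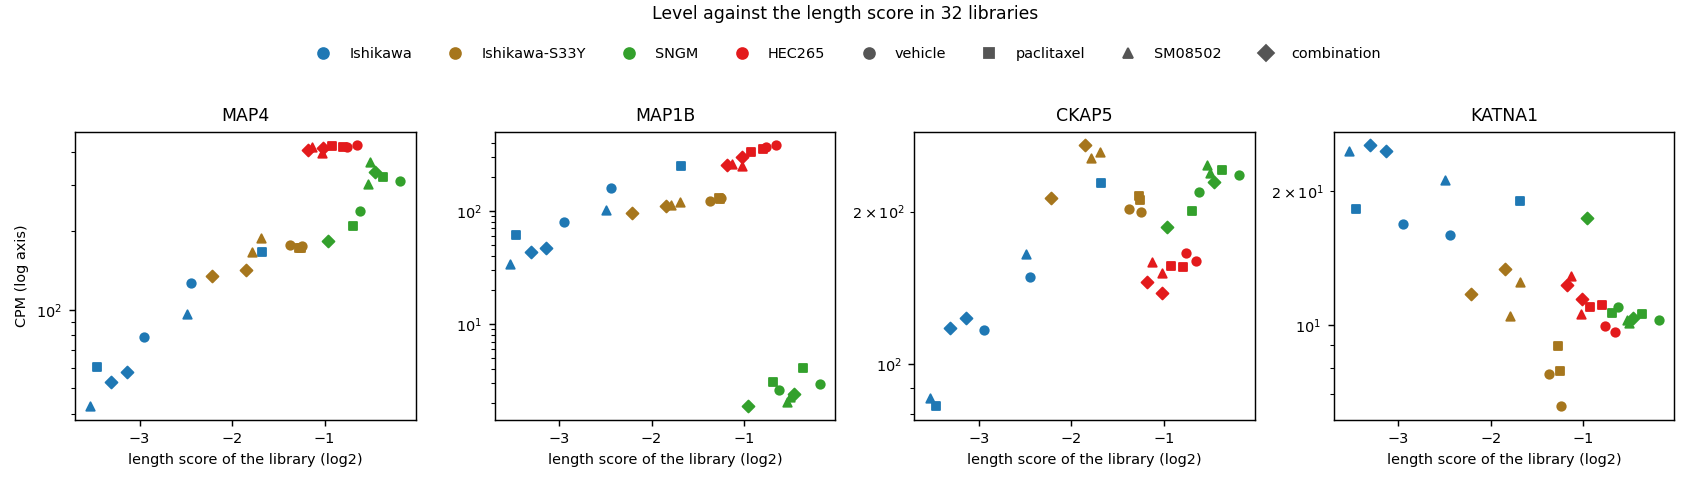
Level of MAP4, MAP1B, CKAP5 and KATNA1 in CPM (log axis) against the length score of the library in 32 libraries, with colour for the line and shape for the treatment. In Ishikawa, MAP4 rises from 42.6 CPM at a score of -3.53 to 167 CPM at -1.68.

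The likeness of the patterns was described by Pearson's r over the 16 group means, which share lines, libraries and treatments and are no independent points. MAP4 and MAP7 were most alike (r = 0.958), followed by MAPT and CKAP5 (0.824), MAP4 and MAPT (0.780) and MAPT and CLASP1 (0.780). STMN1 ran opposite to MAP4 (-0.923) and MAP7 (-0.919), and KATNA1 opposite to MAPT (-0.854).

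Paclitaxel, the drug that acts on microtubules directly, called none of these genes. None of the 40 changes (10 genes in 4 lines) was called, against 0.00882% of all genes over the 4 lines (Ishikawa 0.0118%, Ishikawa-S33Y 0.00%, SNGM 0.0176% and HEC265 0.00588%), and none had an unadjusted p under 0.05. limma voom, a test on the recovered reads, also called 0 of 40. At an unadjusted p under 0.05, limma found 1254 of the 17011 genes for Ishikawa, 122 for Ishikawa-S33Y, 300 for SNGM and 158 for HEC265. The 40 differences lay between -0.19 (STMN1 in SNGM, from 662 and 576 CPM to 574 and 509 CPM) and 0.28 (MAP1B in SNGM, from 2.62 and 2.93 CPM to 3.10 and 4.09 CPM). In the mean over the 4 lines, the 95% confidence intervals reached from -0.40 for MAP4 to 0.53 for MAP1B. These bounds are for the mean alone, and in a single line the error was larger, up to a standard error of 0.43 for MAP1B. Here and below, the error of a mean over lines comes from the spread between libraries of a group. It holds no spread between lines, so it does not extend to other lines. For MAPT the mean was 0.06 (interval -0.18 to 0.30) and for STMN1 it was -0.04 (interval -0.18 to 0.105).

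**Figure D3:**
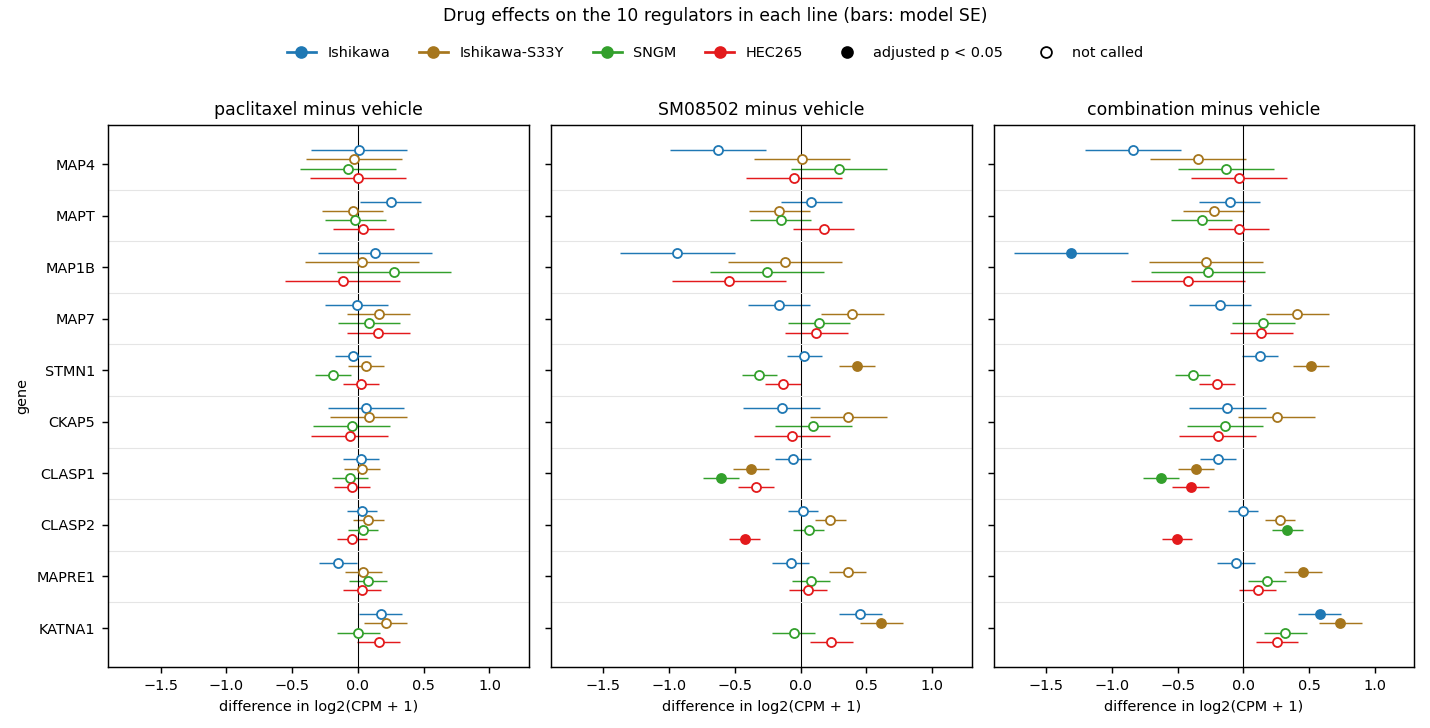
Difference of each drug group from vehicle in log2(CPM + 1), with the standard error of the model as the bar, for 10 genes (rows) in 4 lines (colours). Filled points passed the adjusted p of 0.05, which none of the 40 did with paclitaxel, 5 did with SM08502 and 10 did with the combination.

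SM08502 lowered CLASP1 and raised KATNA1 in the mean over these 4 lines. It changed 5 of the 40 values, against 16.7% of all genes over the 4 lines, with 2 rises (9.52% of all genes) and 3 falls (7.18%). By line, 0 of 10 genes were called in Ishikawa (15.2% of all genes), 1 in HEC265 (14.7%), 1 in SNGM (7.86%) and 3 in Ishikawa-S33Y (29.1%). In Ishikawa, 2 genes had an unadjusted p under 0.05, and limma voom called 1, KATNA1 (adjusted p = 0.0326). Over all genes the median change in Ishikawa-S33Y was 0.11, so changes there stand relative to that shift. Groups of 2 libraries often did not overlap. This held for 16 of the 40 values with paclitaxel, where 0 were called, for 24 with SM08502 and for 30 with the combination. The share over all genes was not computed, so an absence of overlap is a description and no support for a change.

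CLASP1 went from 154 and 158 CPM to 103 and 101 CPM in SNGM, where it fell by 0.61 ± 0.14 (limma, adjusted p = 0.00722). In Ishikawa-S33Y it went from 93.4 and 94.7 CPM to 72.7 and 71.5 CPM and fell by 0.38 ± 0.14 (limma, adjusted p = 0.0422). In neither line did the groups overlap. In HEC265 the levels were 100 and 95.4 CPM on vehicle and 81.0 and 72.8 CPM with SM08502, a difference of -0.34 ± 0.14 that was not called (limma, adjusted p = 0.104). The HEC265 difference was called when HEC265 alone was fitted (limma, adjusted p = 0.00774) and without the Ishikawa libraries (limma, adjusted p = 0.00182). It was also called by limma voom (adjusted p = 0.00204), after median re-centring (0.00813), after quantile normalization (0.0406) and with the length score as a covariate (0.0249). In Ishikawa the groups overlapped, with 63.9 and 73.5 CPM on vehicle and 68.4 and 63.4 CPM with the drug. In the mean over the 4 lines CLASP1 fell by 0.35 ± 0.07 (limma, adjusted p = 0.000409), 1 of 2 genes of the 10 called in that mean, against 38.5% of all genes. The call in the mean held under all 11 alternatives and each of 32 left-out libraries, with an adjusted p of at most 0.00178. The call in Ishikawa-S33Y was lost with no filter (adjusted p = 0.0696), with no intensity trend (0.0550) and without any 1 of 14 libraries (up to 0.163), and that in SNGM without the second vehicle library or either SM08502 library (adjusted p of 0.0624, 0.0567 and 0.0550). The lncRNA CLASP1-AS1 and the snRNA gene RNU4ATAC overlap CLASP1.

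KATNA1 was the other gene called in the mean, where it rose by 0.31 ± 0.08 (limma, adjusted p = 0.00449). In Ishikawa-S33Y it went from 6.55 and 7.76 CPM to 12.5 and 10.5 CPM and rose by 0.61 ± 0.16 (limma, adjusted p = 0.00734). Ishikawa held 16.9 and 16.0 CPM on vehicle and 21.2 and 24.6 CPM with SM08502, a difference of 0.45 that was not called (limma, adjusted p = 0.0638). The values were 9.66 and 9.92 CPM against 10.6 and 12.9 CPM in HEC265, and 10.9 and 10.3 CPM against 10.1 and 10.2 CPM in SNGM. Vehicle and drug did not overlap in any line, with the drug libraries higher in Ishikawa, Ishikawa-S33Y and HEC265 and lower in SNGM, where the difference was -0.05 (limma, adjusted p = 0.941). The test of the SM08502 effect over the 4 lines did not call KATNA1 (limma F test, unadjusted p = 0.0474, adjusted p = 0.171). The mean kept its call under all 11 alternatives and each left-out library, with an adjusted p of at most 0.0172. In Ishikawa-S33Y the call was lost without the first vehicle library or the first SM08502 library (adjusted p of 0.0886 and 0.0908).

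CLASP2 changed in HEC265, from 108 and 102 CPM to 78.3 and 77.3 CPM, and fell by 0.43 ± 0.12 (limma, adjusted p = 0.0157). In Ishikawa-S33Y it held 64.0 and 63.0 CPM on vehicle and 75.9 and 72.9 CPM with SM08502, a difference of 0.22 that was not called (limma, adjusted p = 0.157). That difference was called when Ishikawa-S33Y was fitted alone (limma, adjusted p = 0.0316). The groups did not overlap in either line, and the effect in HEC265 minus that in Ishikawa-S33Y was -0.65 ± 0.16 (limma, adjusted p = 0.0209), against 5.66% of all genes called in that comparison of effects. Over all 6 pairs of lines, 2 of 60 such differences were called, against 4.36% of all genes. In the test of the SM08502 effect over all 4 lines, CLASP2 was the single gene of the 10 called (limma F test, adjusted p = 0.0435), against 12.4% of all genes, and it was not called with no filter, with a pseudocount of 0.1 or with no intensity trend. The HEC265 call was lost without any 1 of the 4 libraries compared (adjusted p of 0.0600 to 0.133).

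STMN1 rose in Ishikawa-S33Y alone among the called changes, from 452 and 480 CPM to 622 and 632 CPM (0.43 ± 0.14, limma, adjusted p = 0.0228). SNGM held 662 and 576 CPM on vehicle and 471 and 524 CPM with SM08502, a difference of -0.31 that was not called. The effect in SNGM minus that in Ishikawa-S33Y was -0.74 ± 0.19 (limma, adjusted p = 0.0189), against 9.83% of all genes, and the test over the 4 lines gave an adjusted p of 0.0524. The rise in Ishikawa-S33Y was not called after median re-centring (0.37, adjusted p = 0.135) or by limma voom (0.29, adjusted p = 0.162), nor without any 1 of the 4 libraries compared (adjusted p of 0.0667 to 0.132). The doses of SM08502 differed between these lines, at 350.7 nM in SNGM and 85 nM in Ishikawa-S33Y.

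The remaining genes were not called for SM08502 in any line. MAP1B in HEC265 went from 379 and 365 CPM to 250 and 259 CPM, groups that did not overlap, with a difference of -0.55 ± 0.43 (limma, adjusted p = 0.497). The error of MAP1B is shared with Ishikawa, where its replicates lay far apart, and the same difference was called when HEC265 was fitted alone (limma, adjusted p = 0.00468) and without the Ishikawa libraries (limma, adjusted p = 0.00187). MAP1B in Ishikawa was at 80.3 and 159 CPM on vehicle and at 101 and 33.6 CPM with SM08502, and the groups overlapped. MAPRE1 in Ishikawa-S33Y was at 138 and 130 CPM on vehicle and 167 and 175 CPM with the drug, without overlap (0.36 ± 0.14, limma, adjusted p = 0.0667). That difference was called with the line fitted alone (limma, adjusted p = 0.00357), after quantile normalization (0.0373) and without both shallow libraries (0.00743). MAP7 and CKAP5 in Ishikawa-S33Y showed differences of 0.39 ± 0.24 and 0.36 ± 0.29, both called when that line was fitted alone (limma, adjusted p = 0.00823 and 0.0247). The mean over lines was -0.10 ± 0.18 for MAP4 and -0.01 ± 0.12 for MAPT.

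The combination gave 10 called changes of 40 against vehicle, where 25.7% of all genes over the 4 lines were called, with 5 rises (14.7% of all genes) and 5 falls (11.0%). Ishikawa had 2 of them (22.8% of all genes), Ishikawa-S33Y 4 (42.0%), SNGM 2 (18.4%) and HEC265 2 (19.5%). CLASP1 fell in 3 lines. Its combination libraries held 69.3 and 76.9 CPM in Ishikawa-S33Y (-0.36 ± 0.14, limma, adjusted p = 0.0388), 105 and 96.5 CPM in SNGM (-0.63 ± 0.14, limma, adjusted p = 0.00309) and 74.1 and 73.3 CPM in HEC265 (-0.40 ± 0.14, limma, adjusted p = 0.0426). In Ishikawa the difference was -0.19 and was not called. Both combination libraries of each called line lay below both vehicle libraries. With the length score as a covariate the Ishikawa-S33Y difference was -0.14 (limma, adjusted p = 0.151), and it was also not called with no filter (0.0621), with no intensity trend (0.0505) or without any 1 of the 4 libraries compared (adjusted p of 0.0537 to 0.186). The HEC265 call was lost with no filter (adjusted p = 0.0733), with no intensity trend (0.0570) and without any 1 of 18 libraries (up to 0.207), and that in SNGM was lost in none.

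KATNA1 rose with the combination in Ishikawa, to 24.7 and 25.4 CPM (0.58 ± 0.16, limma, adjusted p = 0.0143), and in Ishikawa-S33Y, to 11.8 and 13.4 CPM (0.74 ± 0.16, limma, adjusted p = 0.00106). SNGM held 10.3 and 17.4 CPM, the second in the library of 1.61 M reads, and HEC265 held 12.3 and 11.5 CPM, and neither was called. The rise in Ishikawa was not called when that line was fitted alone (adjusted p = 0.0787) or without its second vehicle library or either combination library (adjusted p of 0.0946, 0.0616 and 0.0898). STMN1 rose in Ishikawa-S33Y to 675 and 657 CPM (0.51 ± 0.14, limma, adjusted p = 0.00458) and MAPRE1 to 176 and 190 CPM (0.45 ± 0.14, limma, adjusted p = 0.0151). MAPRE1 was not called without its second vehicle or second combination library (adjusted p of 0.0942 and 0.0955). Over the 13 alternatives the adjusted p reached 0.0463 for STMN1 and 0.0484 for MAPRE1, and a negative binomial model of the recovered reads, whose values are not given here, called neither. STMN1 in SNGM was at 662 and 576 CPM on vehicle and at 430.4 and 517 CPM with the combination, a difference of -0.39 that was not called (limma, adjusted p = 0.0528) but was called under 8 of the 13 alternatives.

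MAP1B fell with the combination in Ishikawa, from 80.3 and 159 CPM to 46.5 and 43.3 CPM (-1.31 ± 0.43, limma, adjusted p = 0.0335). The groups did not overlap. The length scores of the combination libraries were -3.14 and -3.31, against -2.95 and -2.44 on vehicle. Without the second vehicle library the difference was -0.83 (adjusted p = 0.329), and the call was also lost without either combination library (adjusted p of 0.106 and 0.150), with no filter (0.0758) and when Ishikawa was fitted alone (0.330). MAP4 in Ishikawa, at 57.8 and 53.0 CPM with the combination and 78.5 and 127 CPM on vehicle, differed by -0.84 ± 0.36 and was not called (limma, adjusted p = 0.102). MAPT, MAP7 and CKAP5 were not called with the combination in any line. MAP7 in Ishikawa-S33Y differed by 0.41 (limma, adjusted p = 0.179) and CKAP5 in HEC265 by -0.20 (limma, adjusted p = 0.745). Both were called when their line was fitted alone (limma, adjusted p = 0.00493 and 0.00922). So were MAP4 (-0.34, limma, adjusted p = 0.0039) and MAP1B (-0.28, limma, adjusted p = 0.0171) in Ishikawa-S33Y. The same held for MAP1B in HEC265 (-0.42, limma, adjusted p = 0.00956). In the fit over all libraries these were not called (adjusted p of 0.481, 0.637 and 0.591).

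CLASP2 differed between lines in its change with the combination. In HEC265 it fell to 78.3 and 69.1 CPM (-0.51 ± 0.12, limma, adjusted p = 0.00347), a call lost without the second combination library alone (-0.42, adjusted p = 0.0730). In SNGM it rose to 123 and 154 CPM (0.33 ± 0.12, limma, adjusted p = 0.0499), but the higher value came from the shallow library, and without it the difference was 0.17 (adjusted p = 0.502). That SNGM call was lost under 8 of 13 alternatives and without any 1 of 25 libraries. Ishikawa-S33Y held 72.8 and 81.9 CPM, against 64.0 and 63.0 CPM on vehicle, a difference of 0.28 that was not called (limma, adjusted p = 0.0597). The higher value came from the library of 2.99 M reads. This difference was called with that line fitted alone (limma, adjusted p = 0.0105) and without the Ishikawa libraries (limma, adjusted p = 0.0288). The test of the combination effect over the 4 lines called CLASP2 (limma F test, adjusted p = 0.00231) and STMN1 (limma F test, adjusted p = 0.00672), 2 of the 10 genes against 27.1% of all genes.

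In the mean over the 4 lines the combination lowered CLASP1 by 0.40 ± 0.07 (limma, adjusted p = 6.48e-05) and raised KATNA1 by 0.47 ± 0.08 (limma, adjusted p = 6.37e-05). MAP1B was the third gene called, at -0.57 ± 0.22 (limma, adjusted p = 0.0337), against 49.1% of all genes. The CLASP1 and KATNA1 calls held under all 11 alternatives and each left-out library. The MAP1B mean was -0.01 with the length score as a covariate (adjusted p = 0.921), and its call was lost under 4 of 11 alternatives and without any 1 of 10 libraries, among them the second vehicle library of Ishikawa (-0.45, adjusted p = 0.104).

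Set directly against SM08502, the combination called 0 of 40 values, against 0.0970% of all genes over the 4 lines, with 2 at an unadjusted p under 0.05 and 0 called by limma voom. These differences ran from -0.42 to 0.37. Without the first combination library of SNGM, which leaves the shallow one, 3 were called. Set against paclitaxel, it called 7 of 40, against 21.2% of all genes over the 4 lines. These were MAP1B in Ishikawa (-1.44 ± 0.43, limma, adjusted p = 0.0297), STMN1, MAPRE1, KATNA1 and CLASP1 in Ishikawa-S33Y, CLASP1 in SNGM (-0.56 ± 0.14, limma, adjusted p = 0.00808) and CLASP2 in HEC265 (-0.46 ± 0.12, limma, adjusted p = 0.00893). In Ishikawa-S33Y, limma voom did not call STMN1 (adjusted p = 0.0791), MAPRE1 (0.0741) or KATNA1 (0.0721), and CLASP1 was not called with the length score as a covariate (0.122). Each of the 7 was lost without at least 1 of the libraries compared. The MAP1B difference was -0.45 (adjusted p = 0.543) without the paclitaxel library that held 248 CPM. The comparisons with vehicle, SM08502 and paclitaxel share the combination libraries. A departure of the combination from the sum of the single drugs was called for 0 of 40 values, against 0.00294% of all genes, with 0 at an unadjusted p under 0.05 and 0 by limma voom, and these values ran from -0.51 to 0.37.

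The other genes of the microtubule system were taken from 6 lists. Paclitaxel called none of their genes in any line. Of the 12 MAPs of the spindle, SM08502 called 7 in Ishikawa-S33Y, where 6 rose and 1 fell (29.1% of all genes called). In SNGM 2 fell (7.86% of all genes), in HEC265 1 fell (14.7%) and in Ishikawa none was called (15.2%). The list's median was 0.37 in Ishikawa-S33Y, where that of all genes was 0.11, and -0.27 in SNGM, where that of all genes was 0. The 6 that rose were TPX2, CKAP2, CKAP2L, NUSAP1, PRC1 and DLGAP5, which build or bundle spindle microtubules, and PRC1 and DLGAP5 were the 2 that fell in SNGM. HMMR, a spindle protein that also binds hyaluronan, fell by 0.72 ± 0.09 in the mean over lines (limma, adjusted p = 1.17e-06), with -0.98 in Ishikawa-S33Y and -0.93 in HEC265. In that mean, where 38.5% of all genes were called, CKAP2L rose by 0.37 ± 0.09 and PRC1 fell by 0.18 ± 0.07.

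Of the other destabilisers, 7 of 10 passed the filter, and 4 rose and 2 fell with SM08502 in Ishikawa-S33Y, against 29.1% of all genes called, with a list median of 0.46 beside 0.11 for all genes. The 4 were the kinesins KIF2A, KIF2C, KIF18A and KIF18B, and the 2 were STMN3 and KIF24. STMN3, a stathmin relative of neurons, fell by 0.85 ± 0.08 in the mean over lines (limma, adjusted p = 9.67e-08), while STMN1 itself had a mean of 0.00 ± 0.07. In that mean, where 38.5% of all genes were called, KIF2A rose by 0.27 ± 0.06 and KIF24 fell by 0.22 ± 0.07. By line the STMN3 difference was -1.004 (Ishikawa), -0.94 (Ishikawa-S33Y), -1.08 (SNGM) and -0.38 (HEC265), the last not called.

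Of the other severing factors, 7 of 8 passed the filter, and in the mean over lines KATNAL1, a paralogue of KATNA1, fell by 0.23 ± 0.06 (limma, adjusted p = 0.00418). In that mean 38.5% of all genes were called. Of the 12 other plus-end proteins, SLAIN1 rose by 0.27 ± 0.10 and MAPRE2 by 0.20 ± 0.07, and NAV2 fell by 0.49 ± 0.16, 3 called in all in the mean, against 38.5% of all genes. Of the 13 kinases and tubulin modifiers, 3 rose and 3 fell in that mean, against the same share. ATAT1, which acetylates tubulin, rose by 0.44 ± 0.07 (limma, adjusted p = 3.42e-05) and AGTPBP1, which trims glutamates from it, by 0.29 ± 0.07. VASH1 and VASH2, which remove its terminal tyrosine, fell by 0.70 ± 0.12 and 0.42 ± 0.11. Of the 11 other structural MAPs, 1 fell in the mean and none rose, against 38.5% of all genes called.

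**Figure D4:**
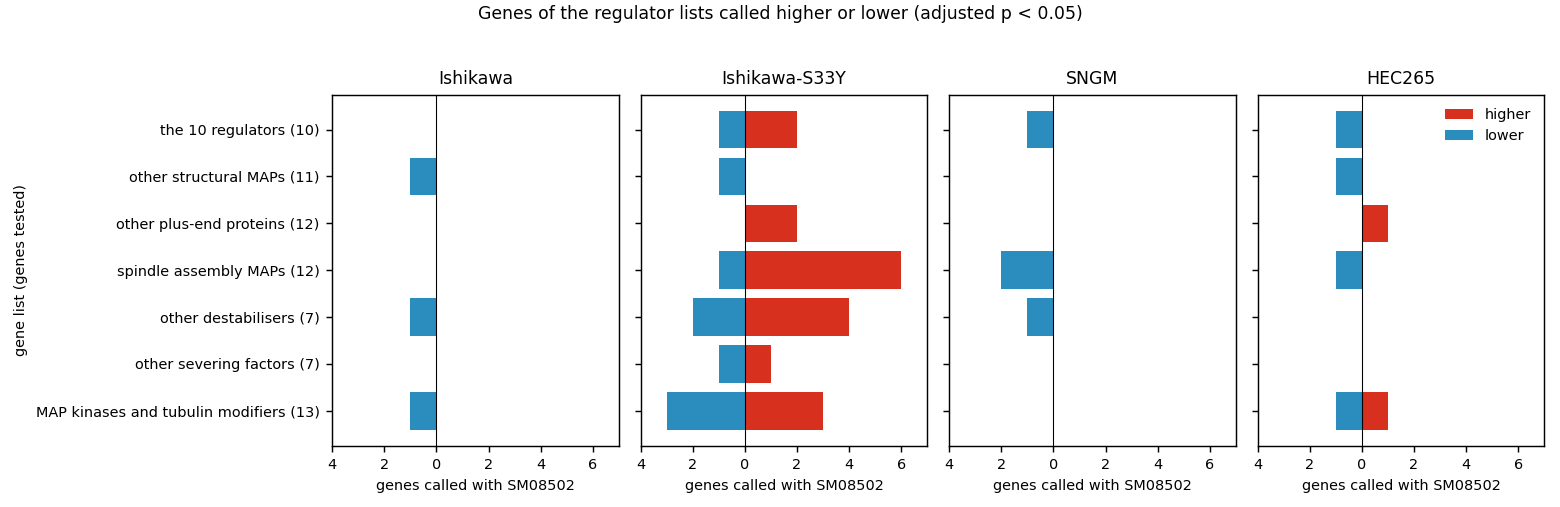
Number of genes called with SM08502 against vehicle (adjusted p under 0.05) in the 10 regulators and 6 further lists, by line, with rises to the right and falls to the left of 0 and the number of genes tested in brackets. The spindle MAPs show 6 rises in Ishikawa-S33Y and 2 falls in SNGM, and no list has a called rise in Ishikawa or SNGM.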

How the data were processed

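The authors deposited log10(CPM + 1) for 35238 genes in 32 libraries, and per the labels' protocols ribosomal RNA was depleted before library preparation. The submitters' processing notes name bcl2fastq, kallisto, STAR and GRCh38. Which of them made the table, its annotation and whether counting used strand are not given in the sources used here. Back-transformed CPM summed to 1000000 in each library, and 100% of values were whole reads within 0.05 reads, which gave the depth. Samples were grouped by the line, treatment and number in their titles, 2 a group.

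Values were tested as log2(CPM + 1) with limma 3.58.1 in R 4.3.3: 1 mean for each of 16 groups, all 32 libraries, an intensity trend, 16 residual and 4.90 prior degrees of freedom, two-sided tests and Benjamini-Hochberg adjustment over 17011 genes with CPM above 1 in at least 2 libraries, in each of 40 contrasts and 4 F tests. Differences on this scale understate changes of low genes. Recovered reads were also tested with limma voom after TMM scaling. Alternatives also changed the filter, pseudocount, scaling, samples and covariates. The fit was also run on simulated data, drawn with 1 spread per gene for all groups. That simulation does not cover a spread that differs between lines, as for MAP1B. All 10 regulators were tested in every comparison, and those not named in a drug comparison were not called there. Of each further list, up to 2 rises and 2 falls are named, the largest in the mean SM08502 effect among genes called with a mean log2(CPM + 1) of at least 1. Members of the spindle and destabiliser lists called in 1 line are named in addition, after their values were seen. The 10 genes and the lists were chosen with earlier results of these data known. A result of the severing list is not reported here. Splicing tables were not analysed here.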

Additional observations from a re-analysis of the deposited data

Results flagged for a closer look

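Of the 60 differences in the SM08502 effect between pairs of lines, 2 were called by a test of the difference itself, against 4.36% over all genes. For STMN1, the effect in SNGM minus that in Ishikawa-S33Y was -0.7400 on the log2(CPM + 1) scale. For CLASP2, the effect in HEC265 minus that in Ishikawa-S33Y was -0.6520. The limma F test of the SM08502 effect over the 4 lines gave CLASP2 an adjusted p of 0.0435, not called with no filter, with a pseudocount of 0.1 or with no intensity trend, and STMN1 an adjusted p of 0.0524. The same test of the combination effect gave STMN1 an adjusted p of 0.00672 and CLASP2 an adjusted p of 0.00231. The STMN1 difference was not called after median re-centring (adjusted p = 0.108), by limma voom (0.0591) or without any 1 of 5 of the 32 libraries. The CLASP2 difference was not called without any 1 of 8 libraries, with an adjusted p of at most 0.0951. The lines received different doses of SM08502.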

How the results depend on the processing

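The calls of CLASP1 and KATNA1 in the means over the lines held under every alternative and left-out library, and so did the 0 of 40 calls for paclitaxel. The cause of the changes below was not tested.

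The share of all genes called was computed for the main fit alone. The counts in this section therefore describe the settings and are no result about the regulators as a set. By setting, genes called of 10 moved as follows. With no filter, the combination called 1 gene in Ishikawa, 1 in SNGM and 1 in HEC265, and the F test of SM08502 called 0, as it did with a pseudocount of 0.1 and with no intensity trend. With no trend the combination called 1 in SNGM and 1 in HEC265. With the stricter filter the SM08502 F test called 2. After median re-centring SM08502 called 2 in HEC265 and the combination 1 in SNGM. After quantile normalization SM08502 called 2 in HEC265, its F test 2 and its pairs of lines 5 of 60. With limma voom SM08502 called 1 in Ishikawa and 2 in HEC265. Without both shallow libraries SM08502 called 1 in Ishikawa and its F test 3.

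With only the compared lines fitted, SM08502 called 7 in Ishikawa-S33Y and 3 in HEC265, the combination 8 in Ishikawa-S33Y, 4 in HEC265, 1 in SNGM and 0 in Ishikawa, the combination against paclitaxel 13 of 40 and the SM08502 pairs 6 of 60. Without the Ishikawa libraries, chosen after seeing the data, SM08502 called 5 in Ishikawa-S33Y, 3 in HEC265 and 2 in SNGM, and the combination 7 in Ishikawa-S33Y.

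The length score also differed between vehicle and SM08502 within Ishikawa-S33Y and HEC265, so drug and score cannot be told apart there. With the length score as a covariate, SM08502 called 7 genes in Ishikawa-S33Y, 5 in HEC265, 3 in SNGM and 1 in Ishikawa, 5 in the mean, 16 of 60 pairs and 7 in its F test. The combination then called 4 in SNGM, 4 in HEC265, 5 in the mean and 7 in its F test, and 14 of 40 against paclitaxel. Vehicle differences reversed for SNGM minus Ishikawa in MAP4 (-0.7277), MAP7 (-0.3576), STMN1 (0.07703) and CKAP5 (-0.9959), and for HEC265 minus Ishikawa in MAP1B (-0.5748) and CLASP1 (-0.1106).

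Same-numbered libraries did not deviate together throughout (r of -0.654 to 0.861 over 6083 genes), so the numbers were not used as pairs. The replicate block moved the combination in HEC265 to 1 gene and vehicle pairs to 43 of 60, and changed no other count. Under it the combination in SNGM no longer called CLASP2 (adjusted p = 0.0633) and called STMN1 (0.0434), and in HEC265 it no longer called CLASP1 (0.0502). The replicate block with crossed numbers, chosen after seeing the data, called 1 gene with SM08502 in Ishikawa, 2 in its F test and 5 in the mean combination effect. It also added MAPRE1 with SM08502 and CLASP2 and MAP7 with the combination in Ishikawa-S33Y, and with the combination MAP4 in Ishikawa and STMN1 in SNGM.

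Leaving out each library gave 37 to 46 vehicle pairs, 9 to 10 in the vehicle F test, 0 to 4 genes for SM08502 in both Ishikawa and Ishikawa-S33Y, 0 to 2 in HEC265 and 0 to 1 in SNGM, and for the combination 0 to 2 in HEC265, 2 to 5 in Ishikawa-S33Y, 1 to 4 in SNGM, with 0 to 3 in Ishikawa. It gave 2 to 3 in the mean of SM08502 and 2 to 5 in that of the combination, 0 to 4 SM08502 pairs, 0 to 3 and 2 to 4 in the F tests of SM08502 and the combination, 0 to 3 against SM08502, 3 to 13 against paclitaxel, 0 to 1 for departure from the sum, and 0 to 0 for paclitaxel in every form. A group left with 1 library was assumed to vary like the others. The 2 shallow libraries limit SNGM and Ishikawa-S33Y combination values most, and MAP1B in SNGM rests on as few as 3 reads. A planned negative binomial model of the recovered reads was run and differed from limma in some calls: it did not call STMN1 with SM08502 or the combination, nor MAPRE1 with the combination, in Ishikawa-S33Y, and in Ishikawa it called KATNA1 with SM08502 and MAP4 with the combination. Its values are not given here, and limma voom, run on the same recovered reads, takes its place.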
